A study of Mus musculus with 2 samples.

Results

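The Rtl1 antisense miRNAs are made from precursors that lie on the strand opposite the imprinted gene Rtl1, in the Dlk1-Dio3 domain of mouse chromosome 12. The array lists them as mmu-miR-127, mmu-miR-136, mmu-miR-337-3p, mmu-miR-337-5p, mmu-miR-431, mmu-miR-433, mmu-miR-434-3p and mmu-miR-434-5p, written below without the species prefix. Taking every entry of those names gave 8 miRNAs with 17 probes among the 1080 miRNAs and 2780 probes of the array. They come from 6 precursors, since miR-337 and miR-434 are each represented by both arms of the hairpin.

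The study measured miRNAs in the medial region of the mandibular arch, the tongue primordium, of ICR mouse embryos at the embryonic stages E10.5 and E11.5, an interval in which myoblasts there begin to differentiate. No genotype or treatment was compared. Each stage was a single pool of total RNA from 40 embryos, labelled with Cy3 and hybridised to 1 Agilent array, so each stage has 1 sample, no difference could be tested, and every value describes these 2 arrays only. The arrays lay on the same slide and share a scan time, per the file headers, and array and stage cannot be told apart. The pools are whole tissue, in which more cells that make a miRNA and more of it per cell cannot be told apart.

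Rtl1 is a retrotransposon-derived gene expressed from the paternal chromosome, known for its roles in placenta and in fetal skeletal muscle. The maternal chromosome makes an antisense transcript from which these miRNAs are cut. Being antisense, they match Rtl1 mRNA along their whole length and can direct its cleavage, and they can also act on other mRNAs through the seed, bases 2 to 8 of the miRNA. Among them, miR-431 is known to target Pax7, a transcription factor of muscle satellite cells, and miR-127 is the member best known from the placenta, where its loss affects the labyrinth.

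The mature sequences show how unlike these neighbours are. All 8 members matched an entry of the RefSeq miRNA table (build GRCm38.p6), where miR-127 is miR-127-3p, miR-136 is miR-136-5p, miR-431 is miR-431-5p and miR-433 is miR-433-3p. They are written 5′ to 3′ with the seed in capitals:
miR-337-5p: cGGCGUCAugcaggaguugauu
miR-337-3p: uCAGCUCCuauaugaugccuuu
miR-431: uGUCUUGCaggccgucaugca
miR-433: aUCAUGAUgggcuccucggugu
miR-127: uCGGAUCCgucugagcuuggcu
miR-434-5p: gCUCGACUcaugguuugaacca
miR-434-3p: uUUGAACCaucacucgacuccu
miR-136: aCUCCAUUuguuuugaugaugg

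The 8 sequences have 8 different seeds, and no other mature mouse miRNA of the table (0 for each) carries any of them. Their GC content ran from 36.4% for miR-136 to 59.1% for miR-127. The longest run that a pair of members shared was 9 bases, cgucaugca in miR-337-5p and miR-431, and uuugaacca in the arms of miR-434. Whether the probe of either member of such a pair reads the other was not tested. All 8 lie on the plus strand, and all 6 precursors fall within the span of Rtl1 in the RefSeq gene table.

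In the array files (build mm9) the members run along 9.51 kb of chromosome 12 in the order miR-337, miR-431, miR-433, miR-127, miR-434, miR-136. The probe of miR-337-5p is listed at chr12:110824030-110824045 and that of miR-136 at chr12:110833542-110833562, as the scanner files list them. Each member had 2 probes, except miR-337-3p with 3, and the probes of a miRNA differed in length by 1 base, all starting at the same end. Every probe was an exact complement of its miRNA. For miR-433, whose value rests on the longer probe alone, they were:
14-base probe: acaccgaggagccc
13-base probe: acaccgaggagcc

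The longer probe pairs with bases 9 to 22 of miR-433 and so leaves its seed unpaired. Detection of a probe required 50% or more of its spots to be well above background, and detection of a miRNA required 1 such probe. Spots flagged as outliers were left out, and a processed intensity, which has the background already subtracted, was averaged over the 12 to 20 remaining spots of each probe. Errors are SD over these spots unless stated, and hold spot noise within an array but no difference between embryos or arrays.

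The array detected 5 of the 8 members in the E10.5 pool and all 8 in the E11.5 pool, against 13.3% and 18.4% of all 1080 miRNAs. Those present at the earlier stage were miR-127, miR-431, miR-434-3p, miR-337-5p and miR-433. The other 3, miR-136, miR-337-3p and miR-434-5p, were detected at E11.5 only, as were 5.74% of all miRNAs. No member was detected at E10.5 only. With every spot required to be above background these counts stayed at 5 and 8, while the scanner software's own detection flag gave 7 and 8, adding miR-337-3p and miR-434-5p at E10.5.

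Among the 5 members measured at both stages, miR-127 had the largest difference. The 20 spots of its brighter probe ran from 186 to 225 at E10.5 (median 200.5), and the 19 spots at E11.5 from 730 to 825 (median 772). All E11.5 spots lay above all E10.5 spots. The means were 201 ± 11.2 and 770.2 ± 28.0, a ratio of 3.83, and the other probe gave 59.9 ± 7.17 and 225 ± 15.8, a ratio of 3.76.

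miR-431 was also read by both its probes at both stages. The spots of its brighter probe ran from 201 to 235 at E10.5 (median 219.9) and from 616 to 717 at E11.5 (median 664), with no overlap. Their means were 218 ± 9.80 and 666 ± 24.6, a ratio of 3.06, and the other probe went from 50.6 ± 5.75 to 154 ± 9.54, a ratio of 3.05.

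miR-434-3p showed a ratio between those of miR-127 and miR-431. Its first probe had spots from 135 to 165 at E10.5 (median 143) and from 469 to 571 at E11.5 (median 522), again without overlap. The means were 146 ± 8.59 and 518 ± 27.2, a ratio of 3.54, and the other probe gave 56.4 ± 6.25 and 199 ± 9.40, a ratio of 3.53.

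miR-337-5p and miR-433 each rest on 1 probe. For miR-337-5p the spots ran from 65.2 to 89.7 at E10.5 (median 77.0) and from 227 to 272 at E11.5 (median 247), and the means of 77.5 ± 6.56 and 247 ± 15.6 differ by a ratio of 3.19. Its shorter probe had 6 of 20 spots above background at E10.5 (mean 26.6 ± 7.77) and all 20 at E11.5 (86.5 ± 8.61). For miR-433 the 14-base probe shown above had spots from 80.0 to 99.5 at E10.5 (median 88.1) and from 230 to 271 at E11.5 (median 248), with means of 87.8 ± 4.78 and 249 ± 13.4, a ratio of 2.83. Its 13-base probe stayed at background in both pools (0.59 ± 3.72 and 13.0 ± 4.66).

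Before any scaling between the arrays, the spots of the 2 stages did not overlap for 8 of the 8 member probes detected at both. The same held for 80.7% of all 218 probes detected at both stages, so it is common on this pair of arrays. All 5 of these members were at least 2-fold brighter at E11.5 without scaling, as were 64.2% of the 137 miRNAs measured at both stages. The E11.5 array was brighter as a whole: the median log2 ratio over those 218 probes was 1.20, while 20 control probes rose by less, by a median log2 ratio of 0.49 (0.26 to 0.90).

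**Figure D1:**
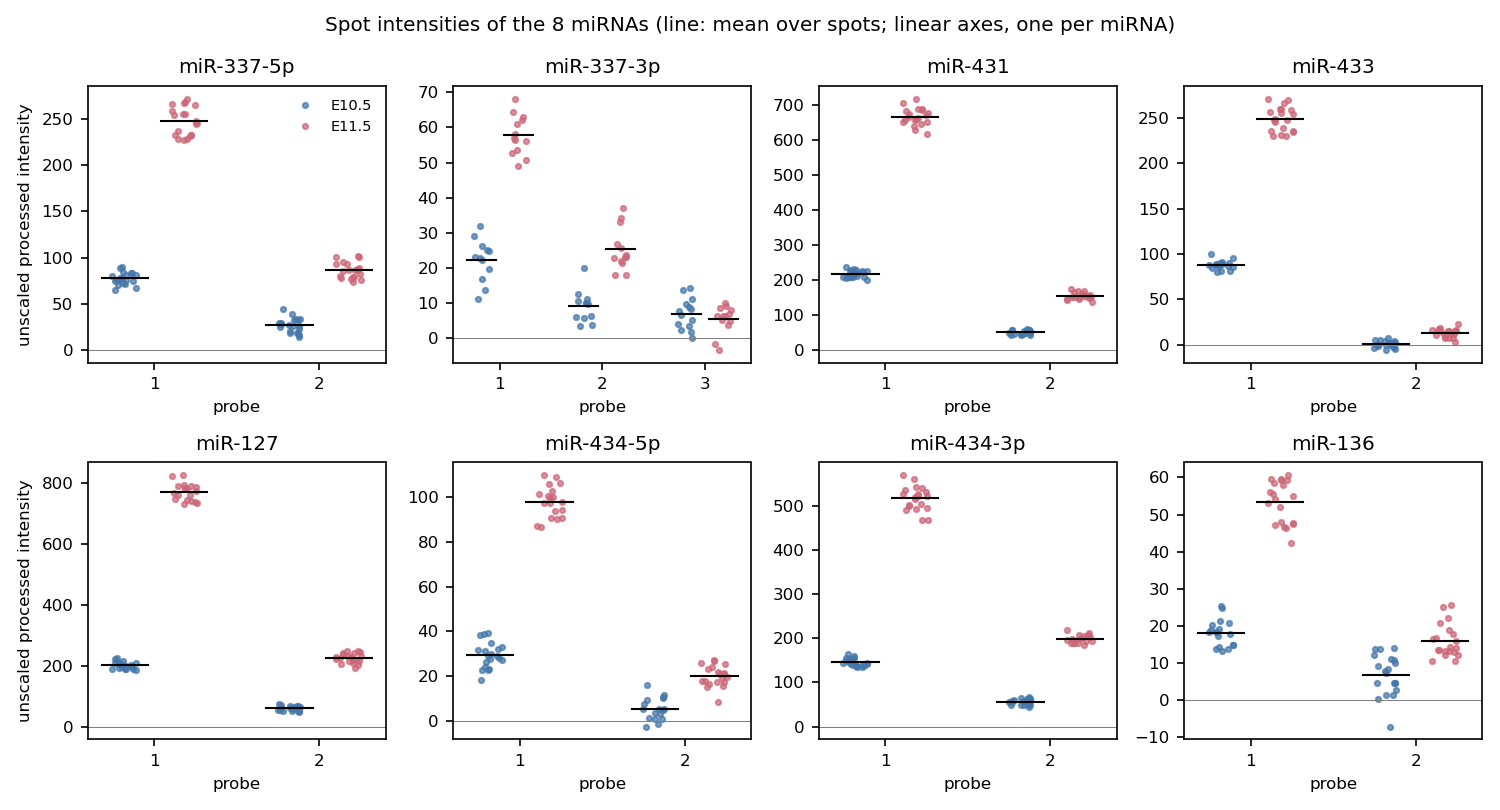
Processed intensity of every spot, unscaled, for each probe of the 8 miRNAs at E10.5 (blue) and E11.5 (red), with a line at the mean. The axes are linear and differ between panels. In miR-127 the first probe averaged 201 in blue and 770.2 in red, and in miR-136 the second probe stayed near background at both stages.

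To set the arrays against each other, intensities were expressed relative to the 75th percentile of the probes that both arrays detected (194 in the earlier and 482 in the later), which takes 1.31 off every log2 difference. A positive scaled difference means a higher intensity at E11.5 relative to that percentile, not a higher amount. Their errors are standard errors (SE) over spots. The 5 members measured at both stages were all higher in the later pool. Their median log2 difference was 0.36, while the median over all 137 measured miRNAs was -0.07. Of those 137, 47.4% were higher by any amount. None of the 5 was 2-fold higher (background 3.65%) or 2-fold lower (13.9%).

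miR-127 differed by 0.61 ± 0.025, a scaled fold of 1.53. miR-434-3p followed at 0.51 ± 0.024 and miR-337-5p at 0.36 ± 0.034. miR-431 was at 0.30 ± 0.023 and miR-433 at 0.19 ± 0.025, a fold of 1.14. Setting each gap between neighbours in this order against 2 SE, miR-337-5p and miR-431 did not differ beyond spot noise (gap 0.064 against 0.083), and the other 3 gaps did.

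The probes of a miRNA agreed more closely than the miRNAs did with each other. The scaled differences of the probes were 0.62 and 0.60 for miR-127, 0.30 and 0.29 for miR-431, and 0.51 and 0.51 for miR-434-3p, and each of these 3 gaps was within 2 SE. Those probes share most of their sequence and their array, so they are no independent replicates. After scaling, 6 of the 8 member probes still had no overlap of spots between the stages, against 57.3% of all such probes. The exceptions were the 14-base probe of miR-433, with scaled intensities up to 0.514 at E10.5 and from 0.477 at E11.5, and the shorter probe of miR-431, with up to 0.314 and from 0.287.

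**Figure D2:**
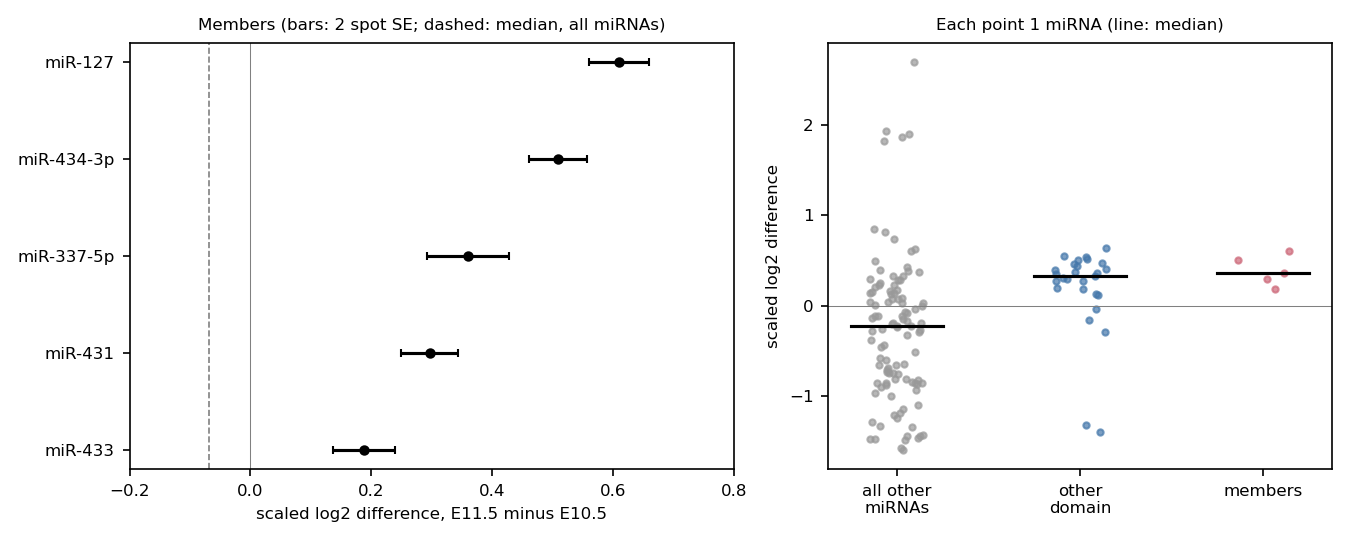
Left, scaled log2 difference between E11.5 and E10.5 for the 5 members measured at both stages, with bars of 2 spot SE and a dashed line at the median of all miRNAs (-0.07). Right, each measured miRNA as a point, for the members, the other miRNAs of the domain and all others, with a line at the median. The members run from 0.19 to 0.61, inside the spread of the other domain miRNAs (-1.39 to 0.64).

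The sizes, and the place of miR-433, depended on the processing. Of 14 alternative settings, miR-127 had the highest of the 5 differences in 13 and miR-433 the lowest in 12. All 5 were above 0 in 13 settings, which does not set them apart where most miRNAs were above 0. Without scaling, 124 of all 137 miRNAs were above 0, with a median of 1.24. Scaling by control probes left that median at 0.75, and taking the percentile over every miRNA probe left it at 1.15. Against the median of all miRNAs in the same setting, every member measured lay higher in 13 settings. Median scaling, no scaling, control probe scaling and the percentile over every miRNA probe shift all miRNAs alike. Those settings could change neither this comparison nor the order, and the members' median stayed 0.43 above that of all miRNAs. With normexp background correction, which adds an offset of 50, miR-433 was at -0.06, miR-337-5p at 0.036 and miR-431 at 0.053, while miR-434-3p was at 0.19 and miR-127 at 0.35. The median over all miRNAs was then -0.28.

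With the scanner software's detection flag, which keeps every probe of a flagged miRNA, miR-433 became the highest of the 5 at 1.73 and was the 1 member past 2-fold. That value averages in the 13-base probe, whose E10.5 mean of 0.59 lay below that of the negative control spots. Of all 169 miRNAs measured with the flag, 35 were at least 2-fold different either way. The same setting gave miR-337-3p, which has no reported difference, a value of -0.43, the only member below the median of all miRNAs in any setting. This value averages in the shortest probe of miR-337-3p, which was at background in both pools (6.96 ± 4.39 and 5.42 ± 3.92). A further version of the flag, chosen after these values were seen, used probes detected on both arrays, or the brightest probe of a miRNA that had none. It gave 0.25 for miR-433 and 0.12 for miR-337-3p. In the authors' deposited table miR-431 was the lowest of the 5 at 0.120 and miR-433 followed at 0.122. The same table puts miR-434-5p at 0.697 and miR-337-3p at 0.593, above miR-127 at 0.472. The neighbours miR-337-5p and miR-431 changed places with quantile normalization (0.24 and 0.28) and with normexp.

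**Figure D3:**
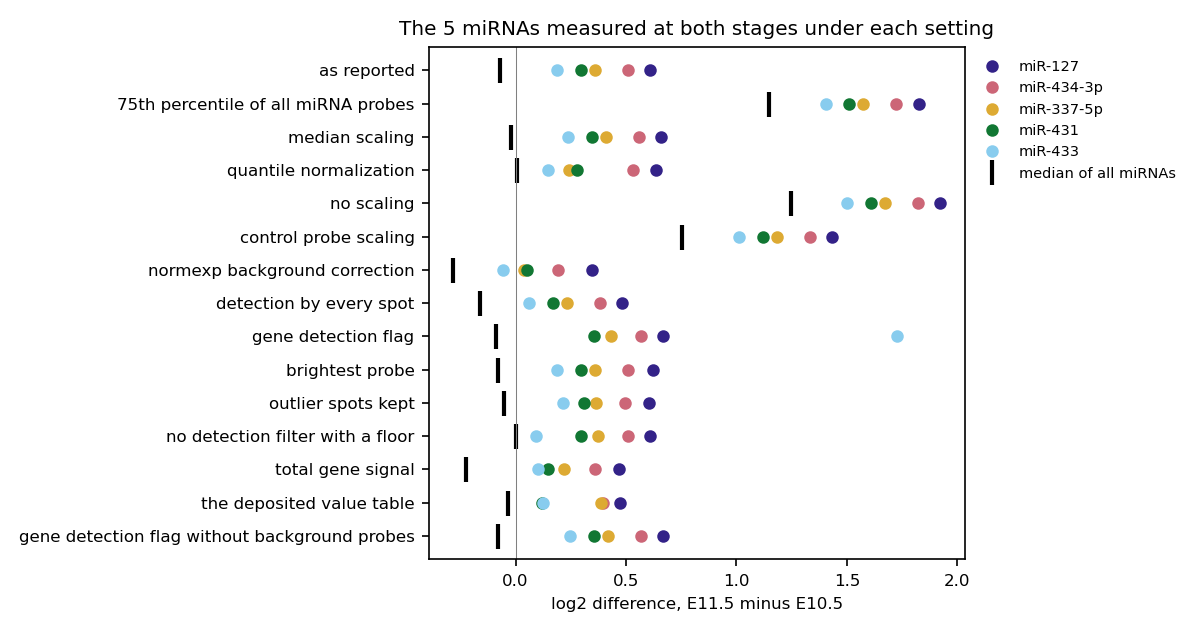
Log2 difference between E11.5 and E10.5 of the 5 members measured at both stages (coloured points) and the median of all miRNAs measured (black tick), for the reported setting and 14 alternatives. miR-127 is the highest of the 5 in 13 of them, including those that move all 5 alike and so cannot change their order. With the detection flag miR-433 lies above it at 1.73, and with normexp miR-433 is at -0.06.

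The 3 members detected at E11.5 only have no difference, and their folds are lower bounds taken against the lowest detected probe of the E10.5 array, or the probe's own intensity where that is higher. For miR-434-5p the longer probe went from 29.3 ± 5.77, with 7 of 20 spots above background, to 98.0 ± 7.01, with 19 of 19. Its E10.5 spots reached 39.4 and its E11.5 spots began at 86.8. After scaling miR-434-5p was higher in the later pool by at least 1.28-fold, and without scaling by at least 3.17-fold, by that probe alone. Its shorter probe had no spot above background in either pool (5.30 ± 4.96 and 20.1 ± 4.63).

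For miR-337-3p the longest probe went from 22.3 ± 6.07, with 1 of 12 spots above background, to 57.9 ± 5.65, with 13 of 13. For miR-136 the longer probe went from 18.1 ± 3.58, with 0 of 18 spots above background, to 53.4 ± 5.70, with 20 of 20. Neither probe's spots overlapped between the stages. Neither miRNA had a bound above 1 after scaling, and without it they were at least 1.87-fold and at least 1.73-fold higher. Their other probes did not reach detection in either pool.

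The authors' deposited table, whose normalization is not given in the sources used here, holds values for 7 members at both stages. In that table miR-127 stood at 141 and 196 at E10.5 and E11.5, miR-431 at 145 and 157, and miR-434-3p at 105 and 138. In the authors' deposited table miR-337-5p was at 50.9 and 66.5 and miR-433 at 45.3 and 49.4. The authors' deposited table also gives miR-434-5p at 14.7 and 23.8 and miR-337-3p at 7.25 and 10.9, and it lists miR-136 at 0.1, its floor, at E10.5 and at 10.8 at E11.5. All 7 ratios were above 1, from 1.09 for miR-431 and miR-433 to 1.62 for miR-434-5p. Over the 169 miRNAs above the floor at both stages the median log2 ratio was -0.035, and the share of them above 1 was not counted.

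Both arms of a precursor are cut from the same transcript, and usually the arm that is loaded into Argonaute is the more abundant. The 3p and 5p arms of miR-337 and of miR-434 could not be compared in the reported setting, since 1 arm of each was not detected at E10.5. In the authors' deposited table the log2 difference of the 3p arm minus that of the 5p arm was 0.21 for miR-337 and -0.30 for miR-434. With the scanner's detection flag the same quantity was -0.86 and -0.0076, and with the version of it chosen afterwards -0.30 and 0.081. The first 2 of these values average in probes without a spot above background in either pool, among them the shortest of miR-337-3p and the shorter of miR-434-5p. Neither precursor kept 1 direction across these settings.

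The other arms of the remaining precursors were mostly at background. Of miR-127*, miR-136*, miR-431* and miR-433*, only miR-433* was detected, and only in the later pool. Its brightest probe had 0 of 10 spots above background at E10.5 (16.4 ± 5.89) and 10 of 10 at E11.5 (58.4 ± 5.20), with no scaled bound above 1 and one of 1.89-fold unscaled. The first probe of miR-127* read -5.45 ± 3.11 in the earlier pool and 0.54 ± 4.30 in the later, and that of miR-136* read 8.61 ± 5.75 and 18.2 ± 3.32.

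Other miRNAs lie between the members on the chromosome. Of 11 others whose probes start between those of miR-337-5p and miR-136, 0 were detected in the earlier pool and 3 in the later, namely miR-433*, miR-665 and miR-3070b-3p. The brightest probe of miR-665, 0.55 kb from miR-337-5p, went from 8.53 ± 5.20 to 30.3 ± 5.34, close to the detection limit. That of miR-3070b-3p went from 12.6 ± 5.62 to 36.8 ± 7.23.

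miR-3071 is annotated at the position of miR-136 on the opposite strand. Probes for both its arms stayed at background in either pool: the first probe of miR-3071 read -2.69 ± 4.19 and -2.35 ± 5.22, and that of miR-3071* read -1.42 ± 4.97 and -0.76 ± 4.57. Negative control spots averaged 7.87 ± 6.16 at E10.5 and 5.88 ± 5.60 at E11.5.

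Toward either end of the domain, miR-770, miR-673 and miR-493, listed before miR-337 on the chromosome, did not reach detection. Downstream, miR-341 (25.7 kb) differed by -0.29 ± 0.047 and miR-370 (32.5 kb) by 0.27 ± 0.030. miR-341 was thus lower relative to other miRNAs, and its unscaled ratio of 2.03 was above 1.

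**Figure D4:**
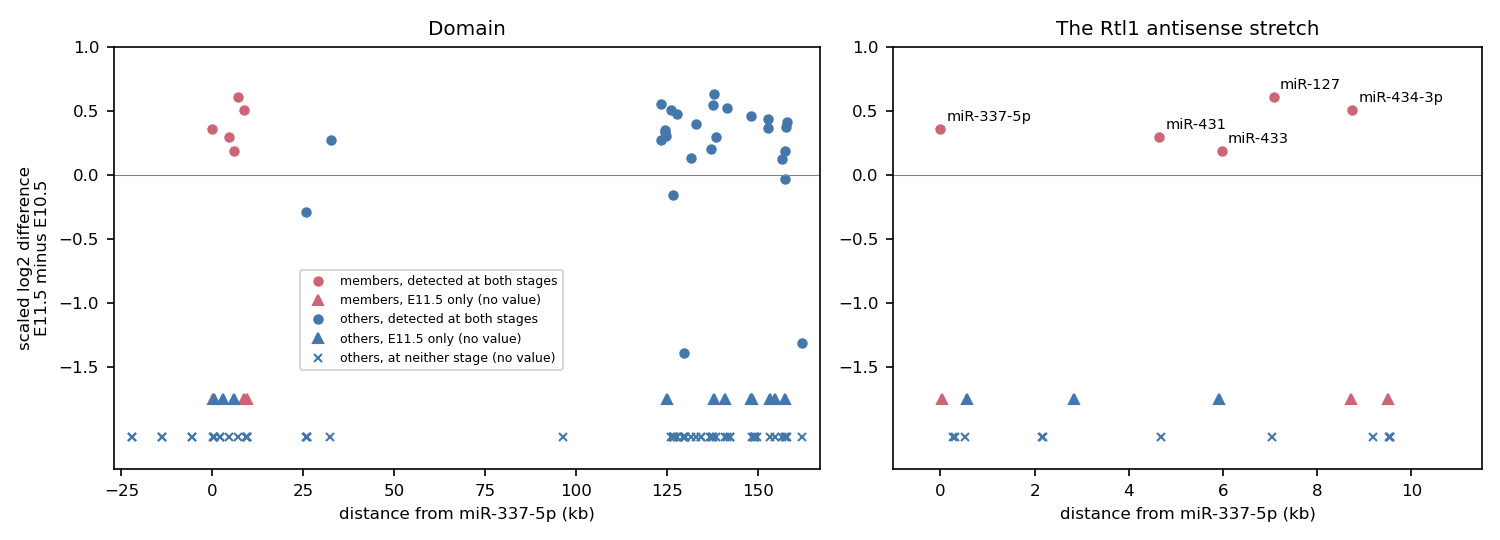
Scaled log2 difference against the distance of each miRNA's probe from that of miR-337-5p (kb, mm9 order), over the whole domain (left) and the Rtl1 antisense stretch (right). Triangles mark miRNAs detected at E11.5 only and crosses those detected at neither stage, which have no value and are drawn beneath all values. The members measured at both stages are labelled, from 0.19 to 0.61.

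Across the domain, the members' values lay close to those of the other miRNAs. Of 98 others on the array, 27 were measured at both stages, 22 of them higher and 5 lower. Their median was 0.33 against 0.36 for the members. Of all 137 miRNAs measured, 47.4% were higher, with a median of -0.07. In the distal cluster, from miR-379 to miR-410 and its neighbours, 21 of 25 were higher, from miR-494 at -1.39 to miR-376a at 0.64. The 5 miRNAs outside the members whose difference was nearest to the members' median, over these 2 arrays, were miR-154* (0.37), miR-411* (0.35) and miR-369-5p (0.37) of the distal cluster, and miR-24 (0.38) and miR-125b-5p (0.34), which lie elsewhere.

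Marker miRNAs give the cell types beside these values. Of the skeletal muscle markers miR-1a, miR-133a, miR-133b and miR-206, 0 of 4 were detected in the earlier pool and 4 of 4 in the later. Of all miRNAs, 5.74% were detected at E11.5 only, on an array that was brighter as a whole. Mesenchymal markers were detected as 3 of 5 and 4 of 5, with the 3 measured at both stages between 0.07 and 0.28. Epithelial ones were detected as 4 of 7 and 5 of 7, with miR-203 at E11.5 only. All 4 epithelial markers measured at both stages were lower (-1.59 to -0.85), while without scaling 2 of them were higher. Of the neural markers miR-124 and miR-9 were at background at both stages, miR-128 was detected at E11.5 only and miR-218 was at 0.50. Endothelial markers were detected as 1 of 2 at each stage, with miR-126-3p at -0.81, and erythroid ones as 1 of 2 at each stage, with miR-451 at -0.60. Of the 3 leukocyte markers miR-223 alone was detected, in the later pool. The part of these cell types in the members' differences was not tested.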

How the data were processed

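RNA from 2 pools of 40 embryos was hybridised to 1-colour arrays, 1 per stage, per the labels' protocols. Per the file headers, the scanner output gives an intensity for every spot after background subtraction with spatial detrending, made by Feature Extraction 10.7.1.1 on design 031184 with mm9 positions, with no normalization between arrays. The submitters' processing notes name version 9.5.1.1. The authors' deposited table has 1 column of linear intensity per stage with a floor of 0.1. Its column medians were 0.1 and 0.1, and 45.0 and 26.6 above the floor, both columns reach 3256, and its centring and scaling are unknown.

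Outlier spots (2058 and 2118 of 43200) were left out. A miRNA's difference averages those of its probes that passed detection at both stages, and a call means at least 2-fold. With 1 array per stage there is no test. The number of arrays limits the precision, and no miRNA spot was saturated (0). The members and lists were chosen with earlier results of these data known. Named were all members, their other arms, the proximal miRNAs of the domain where detected, the extremes of the distal list, the 5 nearest differences and the markers; miR-770, miR-673, miR-493, miR-3071 and the undetected star arms were added after their values were seen. Alternatives covered scaling, normexp background correction, detection, probe summary, outlier spots, a floor and the value table. The planned detection-flag alternative used every probe of a flagged miRNA with a positive mean. A version leaving out background probes was added after its results were seen, and both are given. The reported scaling and differences were tested on simulated data, with detection replaced there by an intensity threshold. The alternatives and the bounds were not tested in this way. Sequences come from RefSeq tables (GRCm38.p6), matched by name and probe. Python 3.11.15, pandas 2.3.3, numpy 2.4.6, matplotlib 3.10.9, R 4.3.3 and limma 3.58.1 were used.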

Additional observations from a re-analysis of the deposited data

How the results depend on the processing

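The members' median difference (0.36) depended on the scaling and on the background correction. It was 1.57 with the 75th percentile of all miRNA probes, 1.67 with no scaling, 1.18 with control probe scaling and 0.053 with normexp background correction. Under the first 3 of these settings 5 members were at least 2-fold higher in place of 0, and the median of the other domain miRNAs was 1.55, 1.65 and 1.16. The median of all 137 miRNAs moved alike, to 1.15, 1.24 and 0.75, and the members' median stayed 0.43 above it. Of all 137 miRNAs, 80, 88 and 49 were then at least 2-fold different either way. That domain median, 0.33 as reported, was -0.096 with normexp. With the gene detection flag the members' median was 0.57 and 1 member, miR-433, was at least 2-fold higher, through a probe at background at E10.5. With that flag 35 of all 169 miRNAs were at least 2-fold different either way. Leaving out background probes, a version chosen after seeing the data, gave a median of 0.42 and 0 members at 2-fold, against 32 of all 169 miRNAs. Under the other settings tried both medians stayed within the SD over their miRNAs. With no detection filter and a floor the domain median was 0.0, equal to that of all 1080 miRNAs, against 0.25 for the members. Counts of detected members were redone with detection by every spot, both versions of the flag, outlier spots kept and the deposited table. They stayed within 1.5 times there. Signal over background limits miR-136, miR-337-3p and miR-434-5p, whose E10.5 level is only a bound. No paired analysis was possible because each stage has 1 sample. The arm comparison gave a value under 4 settings only, and was -0.35 for miR-337 and 0.29 for miR-434 with no detection filter and a floor.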
